A study of Mus musculus with 10 samples.

Results

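The genes described here are 7 regulators of the circadian clock and its output: Bhlhe40, Nr1d1, Nfil3, Dbp, Per1, Per2 and Clock. They were chosen by gene symbol, and every probe set of the arrays with one of these symbols, under its current or an older name, was taken. This gave 7 of the 8252 genes named on the arrays and 8 of the 12488 probe sets, since Nfil3 has 2. Of the 8, 6 probe sets of 5 genes were bright enough to test, and the single probe sets of Dbp and Per2 were not.

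Total RNA of mouse hepatocytes, the main cell type of the liver, was measured on 10 one-colour arrays. Of these, 3 arrays held hypoxic HIF-1alpha null cells, 3 hypoxic wild-type cells that were adeno-treated, 2 normoxic adeno-treated cells and 2 normoxic untreated cells. HIF-1alpha builds up when oxygen is low and, paired with its stable partner, switches on genes of the hypoxic response. There was no group of normoxic null cells, so the response of null cells to low oxygen is given here only against normoxic adeno-treated cells. Not given in the sources used here are the genotype of the normoxic cells, the adeno vector, any adeno treatment of the null cells, how HIF-1alpha was removed, the oxygen level, the length of the hypoxia and the clock time of collection. Neither is it given whether the arrays come from separate cultures, and p-values then measure only the spread between these samples, which may be technical. The labels number the arrays 1 to 3 within the hypoxic groups and 1 to 2 within the normoxic groups.

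The mammalian clock is a feedback loop in which CLOCK and its partner BMAL1 bind E-boxes and switch on the Per and Cry genes, whose proteins then block CLOCK and BMAL1. A second loop runs through REV-ERBalpha, the product of Nr1d1, which competes with ROR receptors and represses Bmal1 and other genes. BHLHE40 (DEC1) represses at E-boxes, and the products of Dbp and Nfil3 activate and repress through the same D-box. In liver this network times the expression of metabolic enzymes, and Bhlhe40 is also known as a gene that HIF switches on.

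The promoter windows of Nr1d1 and Nfil3 are shown because these genes were called in a comparison with array number as a block, and that of Per1, which was called in none, because of the matched windows it alone held the E-box CACGTG. RefSeq windows of GRCm38.p6 matched 5 of the 7 genes, with 8 start sites. Each window below holds the 250 bases before a start, and capitals mark each match to the motifs searched on both strands.
Nr1d1, chr11:98775378-98775627, minus strand: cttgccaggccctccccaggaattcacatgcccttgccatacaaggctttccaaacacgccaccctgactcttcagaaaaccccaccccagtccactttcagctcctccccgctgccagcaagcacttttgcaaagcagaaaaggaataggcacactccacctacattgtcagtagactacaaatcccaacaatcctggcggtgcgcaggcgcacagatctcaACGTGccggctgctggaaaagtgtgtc
Nfil3, chr13:52981040-52981289, minus strand: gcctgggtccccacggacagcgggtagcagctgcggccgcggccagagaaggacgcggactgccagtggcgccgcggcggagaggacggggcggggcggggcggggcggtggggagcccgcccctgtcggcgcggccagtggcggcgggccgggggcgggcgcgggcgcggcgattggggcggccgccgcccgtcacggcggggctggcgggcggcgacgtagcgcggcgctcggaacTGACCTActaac
Per1, chr11:69098699-69098948, plus strand: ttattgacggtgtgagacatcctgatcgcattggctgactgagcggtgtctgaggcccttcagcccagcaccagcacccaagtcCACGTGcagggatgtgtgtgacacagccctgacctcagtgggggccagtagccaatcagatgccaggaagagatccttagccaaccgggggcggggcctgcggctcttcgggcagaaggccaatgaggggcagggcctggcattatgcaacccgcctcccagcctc
In Nr1d1 the capitals are ACGTG, a form of the core of the hypoxia response element that HIF binds, starting 27 bases before the start site. The other form, GCGTG, was not searched and is not marked. In Nfil3 they are the complement of TAGGTCA, the element that REV-ERB and ROR receptors bind, starting 12 bases before the start site. In Per1 they are the E-box CACGTG, starting 166 bases before this start, which on each strand also holds ACGTG. The start sites of the Nfil3 and Per1 windows lie inside the annotated span of each gene. Of 32851 promoter windows of this length, 16.6% held ACGTG, 6.02% CACGTG and 2.23% TAGGTCA. The D-box TTATGTAA (0.819% of windows) and the cAMP response element TGACGTCA (1.55%) matched no window of the 5 genes. ACGTG also matched the window of Dbp, 227 bases before its start, and none of the 5 motifs matched the windows of Clock or the other start of Per1. The unsearched GCGTG does occur in a window of Clock and in that of the other Per1 start, so these windows are not without a hypoxia element core.

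Values are the authors' scaled intensities, and a log2 difference is a difference of group means of log2(intensity + 4.7), which understates changes of dim probe sets. A probe set was called where limma's adjusted p, over 7453 probe sets, was under 0.05. Arrays of the same number tended to vary together, so results that change with the number as a block are given with that fit too. In RNA from a whole culture, fewer cells of a type and less RNA per cell cannot be told apart. The 2 hypoxic arrays of number 3 stood apart. Mean log2 levels of their 18S control probe sets were 12.2 and 12.3, while those of the other 8 arrays lay between 5.98 and 10.2. The summed intensity of 10 stellate cell and fibroblast genes (15 probe sets) was 5708 and 5894 there, against 8550 to 15209 on the others. By group, that sum was 5708 to 13779 in hypoxic null, 5894 to 15209 in hypoxic wild-type, 9288 to 11050 in normoxic adeno-treated and 8550 to 9267 in untreated cells. The sum of 9 hepatocyte genes, none at 0, was 27738 to 35500 in hypoxic null, 25369 to 40515 in hypoxic wild-type, 34800 to 42290 in normoxic adeno-treated and 29964 to 32559 in untreated cells. The sum of 3 biliary genes was 168 to 1867 in hypoxic null, 152 to 2792 in hypoxic wild-type, 279.8 to 702 in normoxic adeno-treated and 322 to 996.5 in untreated cells, highest on number 1 in every group. The sum of 7 macrophage genes was 721 to 984 in hypoxic null, 757 to 1430 in hypoxic wild-type, 738 to 1008 in normoxic adeno-treated and 968 to 1308 in untreated cells. The sums of 5 endothelial and 4 lymphocyte genes reached at most 257 and 115 on any array. None of the tested marker probe sets was called without the block in these comparisons. With it, against normoxic adeno-treated cells, 1 of 3 biliary probe sets was called higher in null (median log2 difference of the 3, 1.43) and 2 in wild type (1.76). For macrophage genes 1 of 7 probe sets was called higher in each (medians 0.203 and 0.525). Of 10 hepatocyte probe sets, 5 were called lower in null (median -0.681) and 3 in wild type (-0.494). The part of these markers in the results below was not tested.

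**Figure D1:**
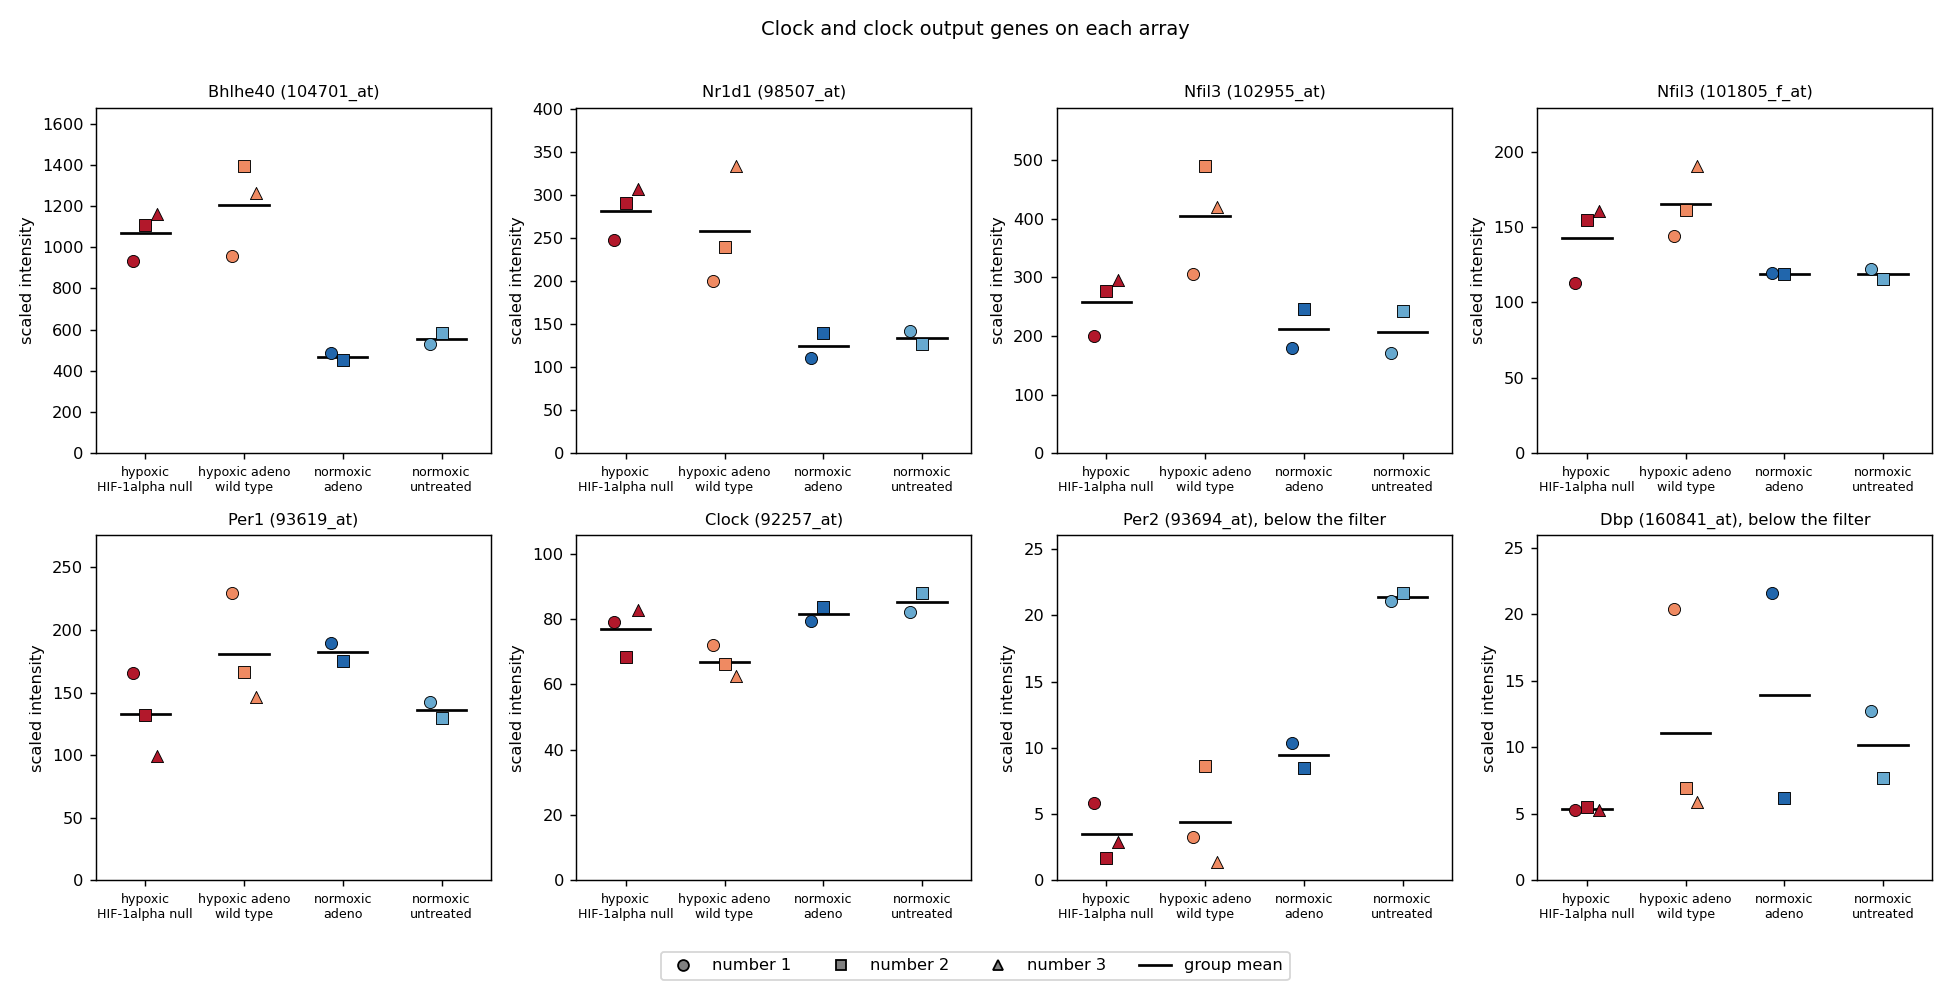
Scaled intensity (linear axes from 0) of the 8 probe sets on each array, with groups from left to right as hypoxic HIF-1alpha null, hypoxic wild type, normoxic adeno-treated and normoxic untreated. Symbols give the array number and lines the group means. For Bhlhe40 the lowest hypoxic value is 931.1 and the highest normoxic value 582.7, and for Nr1d1 these are 199.5 and 141.4.

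Hypoxic wild-type against normoxic adeno-treated cells compares low with normal oxygen in adeno-treated cells. HIF-1alpha is present in the hypoxic cells, and the genotype of the normoxic cells is not given. Bhlhe40, the E-box repressor, rose, and Nr1d1 and Nfil3 were also higher but were called only with the array number as a block. Per1, the light- and stress-inducible period gene, and Clock, the activator of the loop, were not called. Of the 6 tested probe sets, 1 was called higher, where 0.322% of all probe sets tested were, and none lower, where 0.0134% were. With the block, 3 were called higher (background 1.48%) and none lower (background 0.725%). The median log2 difference of the 6 was 0.68, against -0.023 over all probe sets tested. All 3 hypoxic arrays lay above both normoxic adeno-treated arrays for 4 of the 6, a pattern shown by 11.7% of probe sets, and below them for 1, Clock, a pattern shown by 13.1%.

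Bhlhe40 read 955.2, 1396.2 and 1262.2 on the hypoxic wild-type arrays 1 to 3, against 485.2 and 453.3 on the normoxic adeno-treated arrays. All 3 hypoxic values lay far above both normoxic ones. The log2 difference was 1.33 (SE 0.20, 2.52-fold, adjusted p = 0.0202), the 18th smallest p of 7453 in limma. With the block it was 1.28 (adjusted p = 0.00283). Against all 4 normoxic arrays it was 1.21 (adjusted p = 0.00950), and Bhlhe40 was again the only one of the 6 called higher (background 0.47%). Without the number 3 arrays the difference kept its size, 1.29, with adjusted p = 0.0769, and with both the block and these arrays left out adjusted p was 0.00994. With 1 array left out in turn, the difference stayed between 1.22 and 1.49 but the call was kept in 3 of 10 fits (adjusted p 0.0131 to 0.331). It was lost without number 1 or 2 of the normoxic adeno-treated arrays (0.143 and 0.331), 2 or 3 of the hypoxic wild type (0.105 and 0.0757), 1 or 2 of the untreated arrays (0.0503 and 0.0507) or 2 of the null arrays (0.0506). With the block it was lost only without normoxic adeno-treated number 2 (adjusted p = 0.0662).

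Nr1d1, which encodes the repressor REV-ERBalpha, read 199.5, 239.4 and 334.0 on the hypoxic wild-type arrays, against 110.1 and 139.8 on the normoxic adeno-treated arrays. The hypoxic values lay above the normoxic ones without overlap, and differed widely among themselves. The log2 difference was 0.99 (95% interval 0.47 to 1.52, adjusted p = 0.204), and with the block 0.86 (adjusted p = 0.0455). The call with the block was lost when dim probe sets were kept (adjusted p = 0.0760), without the number 3 arrays (0.79, adjusted p = 0.0968) and in 8 of 10 fits that left out 1 array, all but those without an untreated array (adjusted p up to 0.208).

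Nfil3, whose product represses through the D-box, has 2 probe sets. Probe set 102955_at read 305.7, 490.4 and 419.4 on the hypoxic wild-type arrays, against 179.4 and 245.5 on the normoxic adeno-treated arrays. Probe set 101805_f_at, whose name marks possible cross-hybridisation with related transcripts, read 144.3, 161.6 and 190.8 in the hypoxic cells, against 119.2 and 118.6. Both were higher on every hypoxic array, by different amounts. The log2 difference of 102955_at was 0.91 (adjusted p = 0.359), and 0.83 with the block (adjusted p = 0.0241), a call kept without the number 3 arrays (adjusted p = 0.0450). With the block and 1 array left out it was kept in 6 of 10 fits, and lost without number 1 or 2 of the normoxic adeno-treated arrays (0.108 and 0.203) or of the hypoxic wild type (0.0638 and 0.117). Leaving out number 3 of wild type, of null or of both gave the same difference with the block, 0.87, so these fits are not separate checks. The log2 difference of 101805_f_at was 0.45 (adjusted p = 0.633, and 0.331 with the block).

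Per1 read 229.7, 166.7 and 146.1 on the hypoxic wild-type arrays, against 189.7 and 175.0 on the normoxic adeno-treated arrays. The hypoxic values spanned both normoxic ones, and the log2 difference of -0.04 (95% interval -0.60 to 0.53) turned to 0.12 with the block and to 0.10 without the number 3 arrays. Clock read 72.0, 66.2 and 62.5 in the hypoxic cells, against 79.3 and 83.6, all 3 below both normoxic arrays. Its log2 difference was -0.27 (95% interval -0.71 to 0.18, adjusted p = 0.809).

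Per2, a period gene of the negative limb, and Dbp, the D-box activator, were among the dimmest probe sets. Per2 read 3.3, 8.6 and 1.4 on the hypoxic wild-type arrays, against 10.4 and 8.5 on the normoxic adeno-treated arrays. Dbp read 20.4, 6.9 and 5.9, against 21.6 and 6.2. The groups overlapped for both genes. In a fit that kept dim probe sets, the log2 difference was -0.71 for Per2 (adjusted p = 0.748) and -0.22 for Dbp (adjusted p = 0.969).

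**Figure D2:**
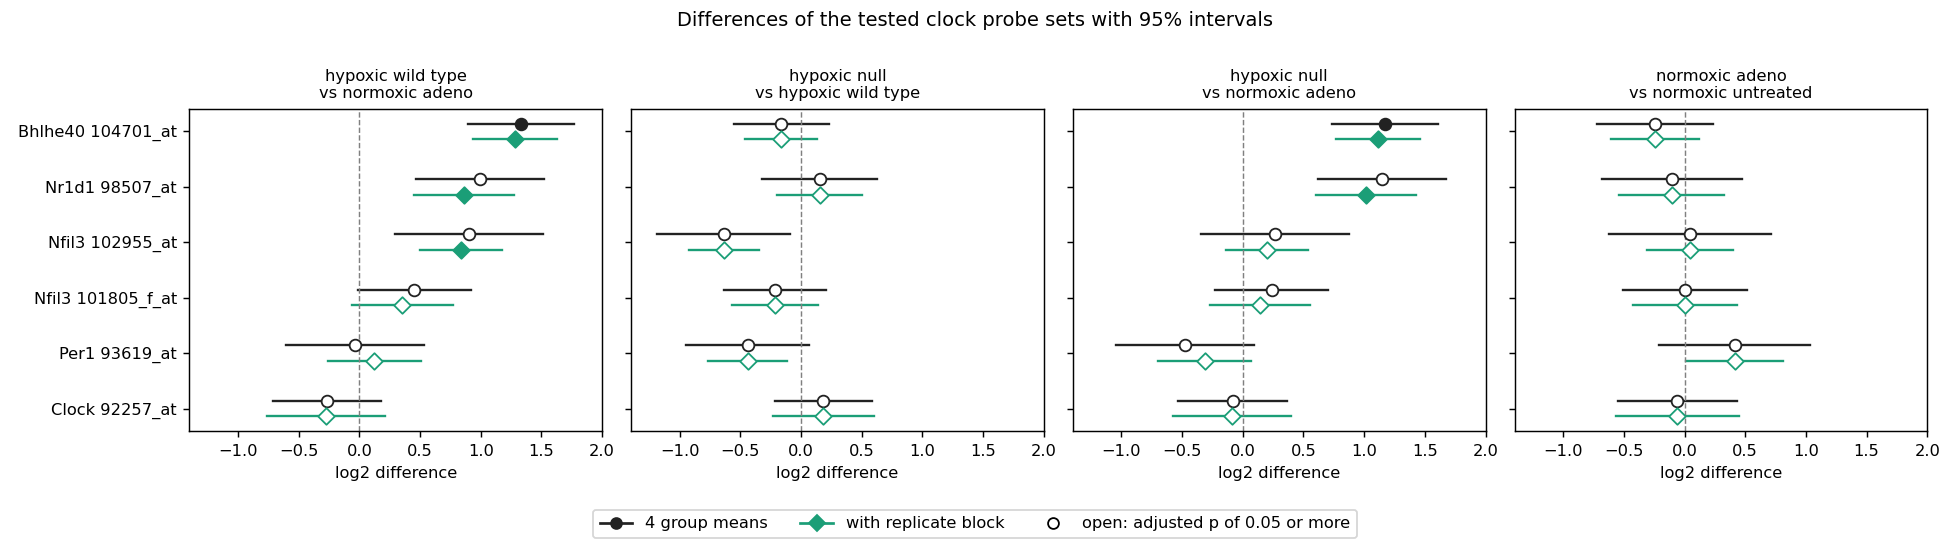
Log2 differences of the 6 tested probe sets with 95% intervals, in 4 panels, 1 for each comparison. Circles are the fit on 4 group means, diamonds the fit with the array number as a block, and filled symbols have an adjusted p under 0.05. Bhlhe40 is filled in both comparisons of hypoxic with normoxic cells, at 1.33 in wild type and 1.17 in null, and no symbol is filled between null and wild type.

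Hypoxic HIF-1alpha null against normoxic adeno-treated cells shows which of these genes were higher in hypoxic null cells than in this reference of unstated genotype. Any adeno treatment of the null cells is not given, so the groups may differ in that too. Bhlhe40 rose here too, and Nr1d1 was higher by a similar amount and was called with the block. Both probe sets of Nfil3 had small differences that were not called. This comparison uses the same 2 normoxic arrays as the last one, so the values are set side by side only. Of the 6 tested probe sets, 1 was called higher (background 0.349%) and none lower (background 0.0939%). With the block, 2 were called higher (background 2.94%) and none lower (background 2.87%). Against all 4 normoxic arrays, 2 were called higher (background 0.631%). The groups did not overlap for 2 probe sets that were higher, Bhlhe40 and Nr1d1 (13.8% of all probe sets), and for 1 that was lower, Per1 (12.1%).

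Bhlhe40 read 931.1, 1105.8 and 1163.3 on the null arrays, against 485.2 and 453.3 on the normoxic adeno-treated arrays, with a wide gap between the groups. The log2 difference was 1.17 (SE 0.20, 2.25-fold, adjusted p = 0.0389), and 1.12 with the block (adjusted p = 0.00430). Without the number 3 arrays it was 1.11 with adjusted p = 0.119, or 0.0155 with the block. The call was kept in 1 of 10 fits that left out 1 array, where the difference stayed between 1.11 and 1.27 (adjusted p 0.0219 to 0.517). That fit left out number 1 of the hypoxic wild type. With the block the call was lost only without normoxic adeno-treated number 2 (adjusted p = 0.0780).

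Nr1d1 read 248.1, 290.0 and 306.4 on the null arrays, against 110.1 and 139.8 on the normoxic adeno-treated arrays. Every null value was above every normoxic one. The log2 difference was 1.15 (SE 0.24, 2.21-fold, adjusted p = 0.108). It was 1.01 with the block (adjusted p = 0.0157) and 1.09 against all 4 normoxic arrays (adjusted p = 0.0342). With the block the call was kept without the number 3 arrays (adjusted p = 0.0250) and in 7 of 10 fits that left out 1 array, and lost without either normoxic adeno-treated array (0.111 and 0.0985) or null number 2 (0.1003).

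Nfil3 probe set 102955_at read 200.2, 277.0 and 294.9 on the null arrays, against 179.4 and 245.5 on the normoxic adeno-treated arrays, and the groups overlapped. The log2 difference was 0.27 (95% interval -0.34 to 0.88, adjusted p = 0.811). For 101805_f_at, with 112.9, 154.4 and 160.8 against 119.2 and 118.6, it was 0.24 (adjusted p = 0.767). Per1 read 165.5, 132.4 and 99.5 on the null arrays, against 189.7 and 175.0, all 3 below both normoxic arrays. Its log2 difference was -0.48 (95% interval -1.04 to 0.09, adjusted p = 0.584).

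Clock read 79.2, 68.3 and 82.8 on the null arrays, against 79.3 and 83.6, a log2 difference of -0.08 (95% interval -0.53 to 0.36). Per2 read 5.8, 1.7 and 2.9 against 10.4 and 8.5, and Dbp 5.3, 5.5 and 5.3 against 21.6 and 6.2. Both of these dim probe sets lay below the normoxic arrays without overlap, a pattern shown by 12.1% of the brighter probe sets tested. The share among dim probe sets was not computed. For Dbp the gap was only from 5.5 to 6.2, close to the offset of 4.7. With dim probe sets kept, the log2 difference was -0.82 for Per2 (adjusted p = 0.530) and -0.75 for Dbp (adjusted p = 0.689).

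Hypoxic HIF-1alpha null against hypoxic wild-type cells compares groups of different genotype in low oxygen. The labels give adeno treatment for the wild-type cells and do not say whether the null cells had it. Genotype and a possible difference in adeno treatment therefore cannot be told apart here. None of the 6 tested probe sets was called by limma, with or without the block, where 0% of all probe sets were called without it and 0.107% with it. At an unadjusted p under 0.05, 1 of the 6 was lower, Nfil3 102955_at, where 1.73% of all probe sets were lower. It was also the only tested one of the 6 whose groups did not overlap, with the null arrays lower, a pattern shown by 2.75% of probe sets.

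For Nfil3 102955_at the null arrays read 200.2, 277.0 and 294.9, against 305.7, 490.4 and 419.4 on the wild-type arrays. The highest null value lay below the lowest wild-type value, and the null array was lower within each of the 3 numbers, by log2 differences of -0.60, -0.81 and -0.50. The fitted difference was -0.64 (SE 0.24, 95% interval -1.18 to -0.09, adjusted p = 0.999), and with the block adjusted p was 0.0856. An exact permutation test of this probe set alone gave p = 0.1, 2-sided, the smallest that 3 against 3 arrays allow. Any probe set whose groups do not overlap gives this value, as the dim Dbp did. The test therefore adds nothing to the lack of overlap. The other Nfil3 probe set differed by -0.22 (95% interval -0.63 to 0.20), also lower in null within each of the 3 numbers, with groups that overlapped.

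Per1 was lower on the null array within each of the 3 numbers, by -0.46, -0.32 and -0.53. The groups overlapped, since number 1 of the null cells (165.5) was above number 3 of the wild type (146.1). The difference was -0.44 (95% interval -0.95 to 0.07), and with the block adjusted p was 0.337. Bhlhe40 differed by -0.16 (95% interval -0.55 to 0.23), Nr1d1 by 0.15 (-0.32 to 0.62) and Clock by 0.18 (-0.21 to 0.58). These intervals still allow a difference of more than 0.5 in size in 1 direction for each of the 3 genes. For Dbp, 5.3 to 5.5 on the null arrays against 5.9 to 20.4, the difference with dim probe sets kept was -0.53 (adjusted p = 1), and for Per2 it was -0.12 (adjusted p = 1).

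Normoxic adeno-treated against normoxic untreated cells compares the normoxic groups, which the labels tell apart by adeno treatment and whose genotype is not given. None of the 6 was called by limma, where 0% of all probe sets were without the block and 0.242% with it. At an unadjusted p under 0.05, 309 probe sets were higher and 310 lower, and none of the 6 was among them without the block. Per1 read 189.7 and 175.0 on the adeno-treated arrays, against 142.3 and 129.4 on the untreated arrays. Both adeno-treated arrays were higher, as for 24.6% of probe sets, by 0.41 on the log2 scale (95% interval -0.21 to 1.03). Bhlhe40 read 485.2 and 453.3 against 529.1 and 582.7, lower on both adeno-treated arrays, as for 24.4% of probe sets, by a difference of -0.24. The dim Per2 read 10.4 and 8.5 against 21.1 and 21.7, lower on both adeno-treated arrays, as for 24.4% of the brighter probe sets tested. Its log2 difference was -0.89 when dim probe sets were kept (adjusted p = 0.699).

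Nr1d1 read 110.1 and 139.8 on the adeno-treated arrays, against 141.4 and 126.7 on the untreated arrays, and the groups overlapped. Nfil3 102955_at read 179.4 and 245.5 against 171.3 and 242.1, and 101805_f_at 119.2 and 118.6 against 121.9 and 115.5. Clock read 79.3 and 83.6 against 82.2 and 88.0, and Dbp 21.6 and 6.2 against 12.7 and 7.7. The differences of Nr1d1, both Nfil3 probe sets and Clock lay between -0.11 and 0.04 on the log2 scale.

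Group means (mean ± SD of intensity) give the order of the 4 groups for each gene, with n of 3 in each hypoxic and 2 in each normoxic group. For Bhlhe40 they were 1067 ± 121 in hypoxic null, 1205 ± 226 in hypoxic wild-type, 469 ± 22.6 in normoxic adeno-treated and 556 ± 37.9 in untreated cells. The hypoxic groups overlapped each other and lay above the others. For Nr1d1 the same groups averaged 282 ± 30.1, 258 ± 69.1, 125 ± 21.0 and 134 ± 10.4, with overlap within the hypoxic pair and within the normoxic pair. For Nfil3 102955_at the means were 257 ± 50.3, 405 ± 93.2, 212 ± 46.7 and 207 ± 50.1, and hypoxic wild type was the only group with no overlap with any other. For Per1 they were 132 ± 33.0, 181 ± 43.6, 182 ± 10.4 and 136 ± 9.12, and hypoxic wild type overlapped normoxic adeno-treated cells as null overlapped untreated cells. For Clock they were 76.8 ± 7.55, 66.9 ± 4.79, 81.5 ± 3.04 and 85.1 ± 4.10, and each group overlapped its neighbour in the order of the means.

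Per1 was highest on the number 1 array in all 4 groups, and Nfil3 102955_at was lowest on it in all 4. Of the probe sets tested, 12.5% were highest on number 1 in all 4 groups and 9.86% lowest. Of the 6 tested clock probe sets, 1 did each, so nothing particular to these genes is read from it. Within the hypoxic groups, Per1 on number 3 was 99.5 in null and 146.1 in wild-type cells, against 165.5 and 229.7 on number 1, while Nr1d1 was 306.4 and 334.0 on number 3, against 248.1 and 199.5 on number 1. Deviations of Per1 from its group means ran against those of Bhlhe40 (r = -0.82), Nfil3 (-0.78) and Nr1d1 (-0.77) over the 10 arrays. Bhlhe40 and Nfil3 deviated together (r = 0.80). The sums of hepatocyte genes also differed by number in the hypoxic groups, with 27738, 28453 and 35500 in null and 25369, 32204 and 40515 in wild-type cells on numbers 1 to 3. These correlations are descriptions over arrays that share group and number.

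**Figure D3:**
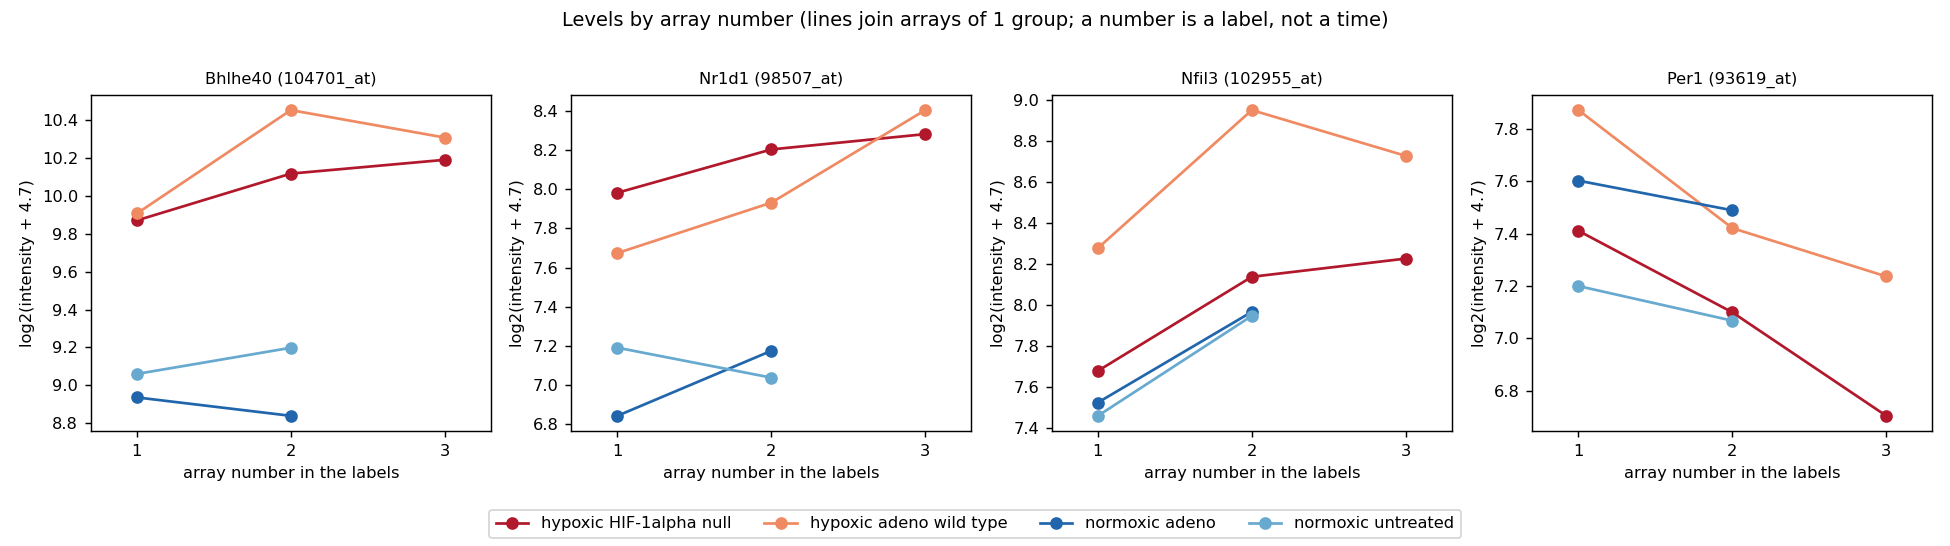
Levels of 4 probe sets on the scale of log2(intensity + 4.7), by the array number in the labels, with lines joining arrays of 1 group. Number 1 is highest in all 4 groups for Per1 and lowest in all 4 for Nfil3, and the normoxic groups have no number 3.

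The genes with patterns most like each clock gene were taken by Pearson's r of log2 levels over the 10 arrays, out of 6722 probe sets with 1 symbol, with the r of deviations from group means beside it. For Bhlhe40 they were Atf3 (0.98, within groups 0.79), Tiparp (0.98, 0.76) and Adm (0.98, 0.84). For Nr1d1 they were Myc (0.98, 0.88), Grpel2 (0.97, 0.89) and Gadd45a (0.97, 0.81). For Nfil3 they were Pfkp (0.93, 0.76), Acadm (0.93, 0.81) and Psmc6 (0.91, 0.66). For Per1 they were Fam53a (0.93, 0.90), Eid1 (0.92, 0.86) and Pafah1b3 (0.91, 0.98). For Clock they were Pomc (0.93, 0.84), Pdcd6 (0.92, 0.83) and Skiv2l (0.91, 0.87). Among the clock genes themselves, Bhlhe40 and Nr1d1 ran closest (r = 0.92, within groups 0.49).

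Of 13 other core clock genes, 8 had probe sets and 7 were bright enough to test. None was called in any comparison by limma, with or without the block. Over all probe sets tested, at most 0.349% without and 2.94% with the block were called in any direction. The lack of calls is therefore not read as a result about these genes. In hypoxic wild-type against normoxic adeno-treated cells 5 of the 7 had positive differences, with a median of 0.43, against -0.023 over all probe sets. In null cells against the same arrays 6 of 7 were positive, with a median of 0.34, against 0.006. In normoxic adeno-treated against untreated cells 2 of the 7 were positive, with a median of -0.307, against -0.006. All 3 comparisons share the normoxic adeno-treated arrays. Cry1, a repressor of CLOCK and BMAL1, had the smallest p in the first comparison, with 216.5, 187.6 and 184.1 in hypoxic wild-type cells, against 146.6 and 140.8, and a difference of 0.43 (adjusted p = 0.598). Its untreated arrays read 211.7 and 254.7, each above at least 4 of the 6 hypoxic arrays. The name of this Cry1 probe set marks possible cross-hybridisation with related transcripts. The other Cry1 probe sets were too dim to test and read at most 7.7 on any array. Whether the tested signal is that of Cry1 alone was not tested. Rora, the activator that competes with REV-ERB proteins, read 96.8, 153.2 and 241.0 against 105.9 and 65.6, a difference of 0.84 (adjusted p = 0.650), and its untreated arrays read 96.5 and 115.2. Nr1d2, the paralogue of Nr1d1, is named after its values were seen. It read 63.7, 99.5 and 86.8 in null and 41.4, 67.5 and 101.3 in hypoxic wild-type cells, against 37.0 and 42.2 in normoxic adeno-treated cells, with 42.1 and 46.8 in untreated cells, and was not called in either comparison (adjusted p = 0.375 in null and 0.686 in wild type).

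Of 16 clock protein kinases, ligases and partners, 10 were tested with 20 probe sets. None was called without the block, where at most 0.349% of all probe sets tested were in any direction. The median difference was 0.10 in hypoxic wild-type and 0.08 in null against normoxic adeno-treated cells. Csnk1e, a casein kinase that phosphorylates PER proteins, was called higher in null with the block alone, the 1 of the 20 (background 2.94%). Its hypoxic wild-type arrays read 149.7, 67.4 and 151.3, and it was not called there in either fit. It read 242.1, 131.2 and 131.4 in null cells, against 72.5 and 50.4 in normoxic adeno-treated cells, a difference of 1.35 (adjusted p = 0.275), or 1.32 with the block (adjusted p = 0.0309). With the block but without the number 3 arrays it was 1.49 (adjusted p = 0.0223).

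Of 20 rhythmic liver output genes, 13 were tested with 15 probe sets. Without the block none was called, where at most 0.349% of all probe sets tested were in any direction. With the block, Nampt was higher and 3 genes lower in hypoxic wild-type cells, and 4 genes were lower in null, all against normoxic adeno-treated cells. Over all probe sets tested, with the block 1.48% were higher and 0.725% lower in wild type, and 2.87% were lower in null. Hepatocyte markers, a list that also holds Tat, were lower in the same fits (3 of 10 probe sets in wild type and 5 in null). The part of the hepatocyte markers in these results was not tested. Nampt, the rate-limiting enzyme of NAD salvage and a CLOCK target, read 75.8, 89.6 and 80.3 in null and 236.7, 169.5 and 215.3 in hypoxic wild-type cells, against 106.5 and 72.0 in normoxic adeno-treated cells. All hypoxic wild-type values were above all others, and the null values fell within the normoxic range. Its difference in wild type was 1.18 (adjusted p = 0.0984), or 1.17 with the block (adjusted p = 0.0343), and in null against wild type -1.28 (adjusted p = 0.316). The genes lower with the block in both hypoxic groups were G6pc and Pck1 of gluconeogenesis and the tyrosine-degrading enzyme gene Tat, while Lpin1 passed in null (adjusted p = 0.0157) but not in wild type (adjusted p = 0.0625). Tat had differences with the block of -1.56 in null and -1.37 in wild-type cells (adjusted p = 5.1e-04 and 0.00134), and its values differed widely by number, with 1244.3, 1790.4 and 4124.5 in null and 1302.7, 2315.0 and 4502.4 in wild-type cells. Without the block its differences were -1.09 and -0.90 (adjusted p = 0.552 and 0.743). With the block but without the number 3 arrays, G6pc and Tat passed in both hypoxic groups (Tat at adjusted p = 0.0027 in null and 0.0048 in wild type), Pck1 and Lpin1 passed in null, and Nampt in wild type did not pass (1.15, adjusted p = 0.0748). The median of the list was 0.187 in null and 0.303 in hypoxic wild-type cells without the block, against 0.006 and -0.023 over all probe sets tested. With the block it was -0.114 in null and 0.071 in wild-type cells, against 0.029 and -0.001, so its sign turned in null.

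Of 15 genes of stimuli that reset clocks (immediate early, cAMP and glucocorticoid genes), 11 were tested with 14 probe sets. Against normoxic adeno-treated cells, 1 was called higher in each hypoxic group (background 0.349% in null and 0.322% in wild type). In null 1 was called lower (background 0.0939%). With the block, 3 were called higher and 2 lower in null (background 2.94% and 2.87%). In wild type 2 were then called higher and 1 lower (background 1.48% and 0.725%). Fos, the immediate early gene, rose in both hypoxic groups against normoxic adeno-treated cells, with 112.1, 187.3 and 228.5 in null and 212.9, 329.8 and 261.2 in wild-type cells, against 48.0 and 41.1. Its differences were 1.82 in null (adjusted p = 0.0393) and 2.45 in wild-type cells (adjusted p = 0.0102). Sgk1, a glucocorticoid-induced kinase gene, fell in null cells, with 1191.0, 1091.1 and 1149.0 against 2181.1 and 2715.5, a difference of -1.09 (adjusted p = 0.0273). In wild-type cells it was -0.73 (adjusted p = 0.186, and 0.0297 with the block). Without the number 3 arrays and without the block, Fos remained called in wild type (2.46, adjusted p = 0.0251) but not in null (1.61, adjusted p = 0.119), and Sgk1 in null was -1.09 (adjusted p = 0.0604). With the block and without those arrays, both Fos differences passed (adjusted p = 0.031 in null and 0.0066 in wild type), as did Sgk1 in null (adjusted p = 0.0085). With the block, 1 of the 2 Junb probe sets was also higher in both hypoxic groups, and in null Dusp1 was higher and Fkbp5 lower. All of these and Sgk1 in wild type lost the call when the number 3 arrays were also left out (adjusted p = 0.0597 in null and 0.0878 in wild type for Junb, 0.0735 for Dusp1 and 0.0702 for Fkbp5 in null, and 0.0696 for Sgk1 in wild type). The median of the list was 0.43 in null and 0.05 in wild-type cells, against 0.006 and -0.023 over all probe sets tested.

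**Figure D4:**
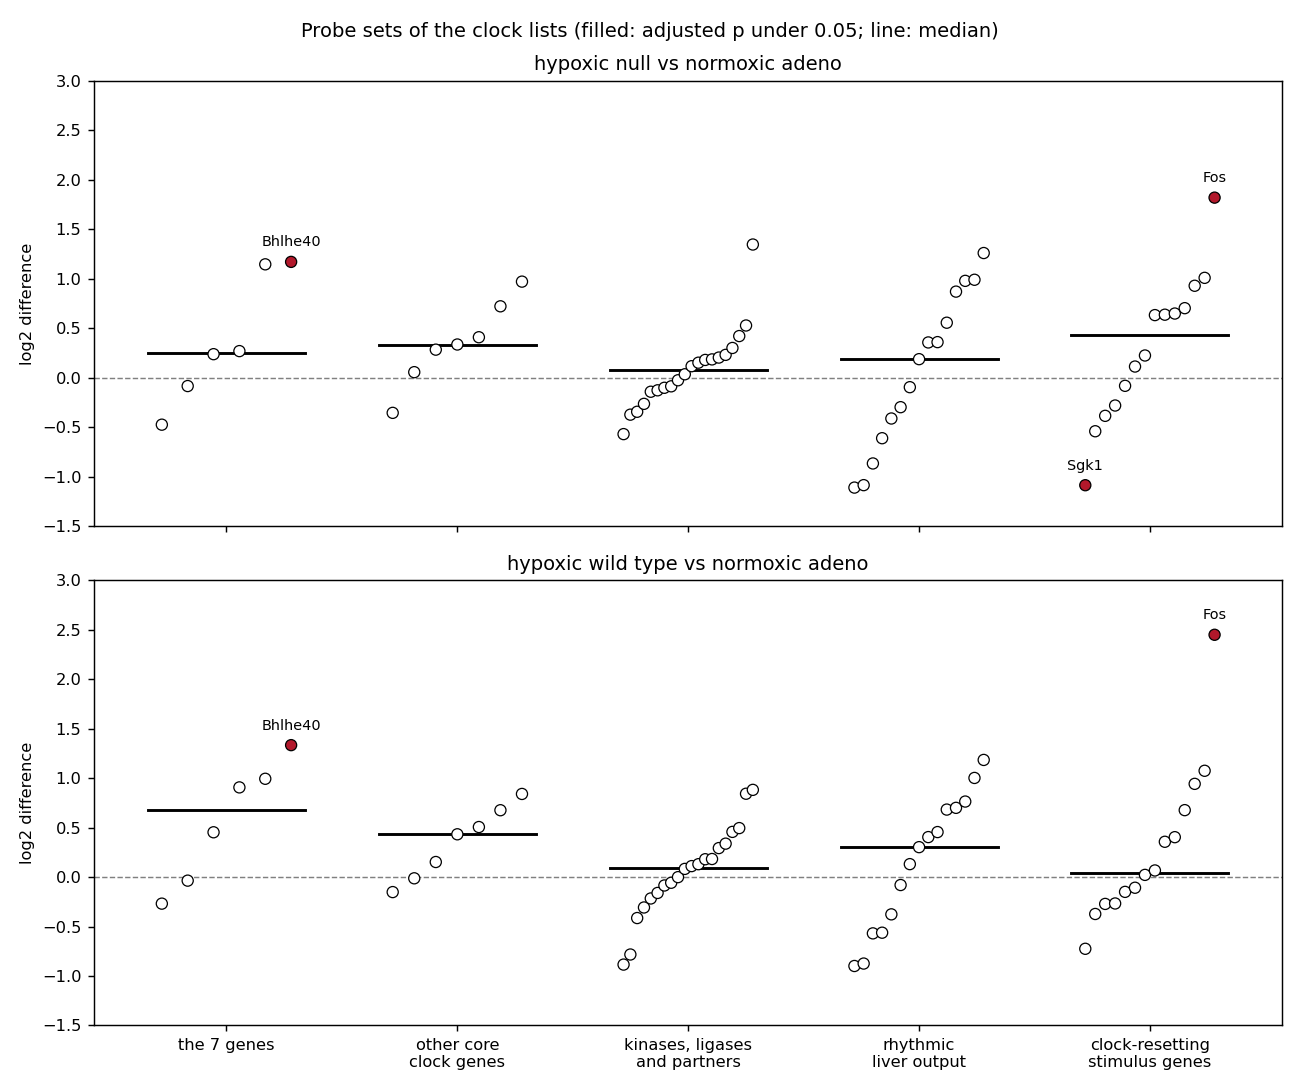
Log2 differences against normoxic adeno-treated cells of the tested probe sets of the 7 genes and of 4 other clock lists, with null cells above and wild-type cells below. Filled points have an adjusted p under 0.05 without the block and lines are medians. Bhlhe40 and Fos are filled in both panels and Sgk1 in the upper one.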

How the data were processed

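The authors deposited 1 table of intensity values on a linear scale. How it was made from the scans was not stated in the labels. The values carry a scaling, since their mean without the lowest and highest 2% was close to 200 on every array. An offset of 4.7 (the 10th percentile) was added before log2. After 66 control probe sets and those under the 40th percentile of mean intensity were left out, 7453 were tested with limma 3.58.1 in R 4.3.3 (4 group means, all 10 arrays, eBayes with an intensity trend, 2-sided, Benjamini-Hochberg), with 6 residual degrees of freedom. Symbols came from the platform's annotation, updated through RefSeq. The array numbers were read as pairing the samples, since deviations from group means of all 13 same-number pairs correlated above 0.1 (0.103 to 0.677). The 24 pairs of different number ran from -0.514 to 0.253, so the ranges overlap. Each normoxic number 2 array was more like number 3 than number 2 of each hypoxic group (untreated with wild type, r = 0.154 and 0.103). Groups of 2 arrays have mirrored deviations, so the pairs are not independent. The block fit has 4 residual degrees of freedom. No normoxic array has number 3. With the block, the number 3 arrays therefore bear on differences from normoxic cells only through the difference of null and wild type. Leaving out 1 or both of them gives the same difference, so those fits are weak and not separate checks. The fit was tested on simulated data. The number of arrays limits the precision. Genes named were the 7, list members past the threshold in either fit, or else the 2 of smallest p. The genes, lists and rules were chosen with earlier results of these data known. Alternatives were other offsets and filters, quantile normalization, no intensity trend, all 4 normoxic arrays, arrays left out and the block. Fits with the block and arrays left out were added after seeing the data.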

Additional observations from a re-analysis of the deposited data

How the results depend on the processing

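Against normoxic adeno-treated cells, Bhlhe40, Nr1d1 and Nfil3 102955_at were higher under every alternative run. The replicate block moved the probe sets called to 164 in hypoxic wild type and 433 in null against normoxic adeno-treated cells, 8 in null against wild type and 18 in adeno-treated against untreated cells, where 25, 33, 0 and 0 were called without it. It moved the clock probe sets called to 3 in wild type (Nr1d1 at 0.86, Nfil3 102955_at at 0.83) and 2 in null (Nr1d1 at 1.01), where 1 was called in each without it. All 4 normoxic arrays as the reference gave 42 and 70 calls in wild type and null, 2 of them clock probe sets in null (Nr1d1 at 1.09). Without the number 3 arrays, 18 calls were left in null against normoxic adeno-treated cells and 1 was made between null and wild type, and Bhlhe40 (1.29 in wild type, 1.11 in null) lost its call, leaving 0 clock calls. Without the intensity trend Bhlhe40 lost its call in null (1.17), leaving 0. The difference of Per1 in wild type turned to 0.12 with the block, 0.10 without the number 3 arrays and 0.17 against all 4 normoxic arrays.

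With 1 array left out in turn, calls ranged from 3 to 32 in wild type and from 3 to 30 in null against normoxic adeno-treated cells. Clock calls ranged from 0 to 1 in each, or with the block from 0 to 3 in wild type and from 0 to 2 in null. Bhlhe40 ranged from 1.22 to 1.49 in wild type and from 1.11 to 1.27 in null. Signs turned for Per1 in wild type (-0.22 to 0.10), for Nr1d1 in null against wild type (-0.012 to 0.35), and in adeno-treated against untreated cells for Nfil3 101805_f_at (-0.035 to 0.040), Nfil3 102955_at (-0.20 to 0.29) and Nr1d1 (-0.27 to 0.061). Other offsets, other filters and quantile normalization ended no call of the clock probe sets made without the block. With it, keeping dim probe sets ended the Nr1d1 call in wild type (0.86, adjusted p = 0.0760). The causes of these shifts were not tested. With 2 and 3 arrays a group and 4 to 6 residual degrees of freedom, and with Per2 and Dbp at the dim end of the arrays, small changes of these genes were not detectable.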
